A study of Mus musculus with 12 samples.

Results

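The genes described here are 10 CC chemokines, namely Ccl2, Ccl3, Ccl4, Ccl5, Ccl7, Ccl8, Ccl20, Ccl22, Ccl25 and Ccl28, chosen by name from the 19935 genes measured on Affymetrix arrays of mouse colon by probe sets that carry a single gene symbol. The choice was made with earlier results of these data known. Each gene is represented by the mean of its probe sets, and 9 of the 10 have 1 probe set. The RNA is labelled colon epithelial cells, from male mice aged 8 to 10 weeks. The TG DSS group carried the Villin-Claudin-2 transgene and drank 4% (w/v) dextran sulfate sodium (DSS), a polymer that injures the colon lining, for 10 days, and the WT DSS group were wild-type littermates given the same DSS. The TG water and WT water groups were transgenic and wild-type mice on normal drinking water. Each of the 4 groups has 3 arrays. Villin is a brush border protein whose promoter is used to express transgenes in gut epithelium, and claudin-2 forms tight junction channels for cations and water.

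Chemokines of the CC class are small secreted proteins with adjacent cysteines near the N terminus, and they steer leukocytes through G protein-coupled CC receptors. Several are made on demand by macrophages, activated lymphocytes and injured stroma, where NF-kB and interferon signalling switch them on. Others, such as Ccl20, Ccl25 and Ccl28, are made by gut epithelium and draw dendritic cells and lymphocytes to the mucosa.

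Values are given in log2 units around each probe set's own 12-array median, so they compare arrays and give no absolute level, and no gene's level can be set against another's. In bulk RNA of this kind, fewer cells of a type and less RNA per cell cannot be told apart. Whether the 3 replicates of a group are separate animals is not stated, so p-values reflect only the spread seen between these samples, which may be technical. For each gene, limma used 1 spread shared by the 4 groups, whose own spreads were unequal. The SE and intervals of TG and water comparisons therefore also carry the scatter of the WT DSS arrays. Those of comparisons with WT DSS, where the calls below lie, also draw on the tighter groups. Their SE and p-values can thus be too small for genes that scattered most on the WT DSS arrays. For Ccl3 the SD was 2.18 in WT DSS, 0.16 in TG water and 0.09 in WT water. The SE was 0.85 for TG minus WT at water and also for DSS minus water in WT. The DSS arrays differed in how far they stood from the rest. Between 677 and 3795 of 28815 probe sets lay over 1 log2 unit from their median on the WT DSS arrays (3795 on replicate 2), between 53 and 285 on the TG DSS arrays, and between 22 and 91 on the water arrays. The 12 pan-epithelial marker genes had a median of -2.13 on WT DSS replicate 2 and between -0.19 and 0.11 on the other 11 arrays, so the epithelial label is least borne out on that array. Cldn2 itself read 0.36, 0.18 and -0.02 in TG water and -0.04, 0.02 and 0.11 in WT water replicates 1 to 3 (difference 0.14 ± 0.44 SE; limma adjusted p = 1). Under DSS Cldn2 read -0.24, 0.27 and 0.15 in TG and -0.53, -2.28 and -0.12 in WT. There TG minus WT was 1.04 ± 0.44 (SE; limma adjusted p = 0.292), and the DSS difference in WT was -1.01 ± 0.44 (limma adjusted p = 0.315). The Cldn2 value of -2.28 lay on the array with the low pan-epithelial median. Whether this probe set detects transcripts of the transgene is not known here, so Cldn2 is a weak check of the genotype labels.

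Ccl5, also called RANTES, attracts T cells, NK cells and monocytes through CC receptors that include Ccr1 and Ccr3. It was high on all 3 WT DSS arrays and on no other array. Ccl5 read 0.07, 0.01 and -0.36 in TG DSS replicates 1 to 3, 1.5, 1.70 and 2.49 in WT DSS, -0.27, -0.23 and -0.01 in TG water, and 0.08, -0.03 and -0.50 in WT water. The WT DSS arrays did not overlap those of any other group. In order of group means, WT DSS (1.90 ± 0.52, SD, n = 3) came first, followed by TG DSS (-0.09 ± 0.23), WT water (-0.15 ± 0.31) and TG water (-0.17 ± 0.14). The last 3 groups overlapped one another.

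In wild-type mice Ccl5 rose under DSS by 2.05 ± 0.25 (SE; 4.14-fold; limma adjusted p = 0.0267 over all genes). It was the only 1 of the 10 chemokines to pass, where 0.171% of all genes passed and 0.0451% passed as higher. Under DSS it was 1.99 log2 units lower in TG than in WT (difference -1.99 ± 0.25; limma adjusted p = 0.0413), again the only 1 of 10, where 0.0401% of all genes passed, 0.0351% as higher, and Ccl5 was the single gene called lower in TG (0.00502%). The comparisons share the WT DSS arrays, so they are not independent of each other. In TG mice the change of Ccl5 under DSS was 0.08 ± 0.25 (95% interval -0.48 to 0.63; limma adjusted p = 1). The difference between the DSS changes of TG and WT, the interaction, was -1.97 ± 0.35 for Ccl5 (95% interval -2.76 to -1.19; unadjusted p = 0.000209) and missed the threshold (limma adjusted p = 0.797, with 0% of genes called), except without WT DSS replicate 1, where it was -2.17 (limma adjusted p = 0.02). In that setting 239 of 19935 genes passed for the interaction. At water, TG minus WT was -0.02 ± 0.25 (95% interval -0.57 to 0.53; limma adjusted p = 1).

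The direction of both Ccl5 calls was the same in all 21 alternative fits, but the calls passed in 11 of them for DSS in WT and in 8 for TG against WT under DSS. For DSS in WT the adjusted p was 0.378 when only the 6 WT arrays were fitted, 0.138 with a weight per group and between 0.0639 and 0.14 when any single water array was left out. It stayed between 0.00175 and 0.0398 without any single DSS array, where between 19 and 919 of 19935 genes passed. For TG against WT under DSS the adjusted p was 0.501 with the 6 DSS arrays alone. It was between 0.0569 and 0.317 without any single TG or water array, which ended the call. Without any single WT DSS array it was between 0.0018 and 0.0455, where between 16 and 1166 of 19935 genes passed.

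**Figure D1:**
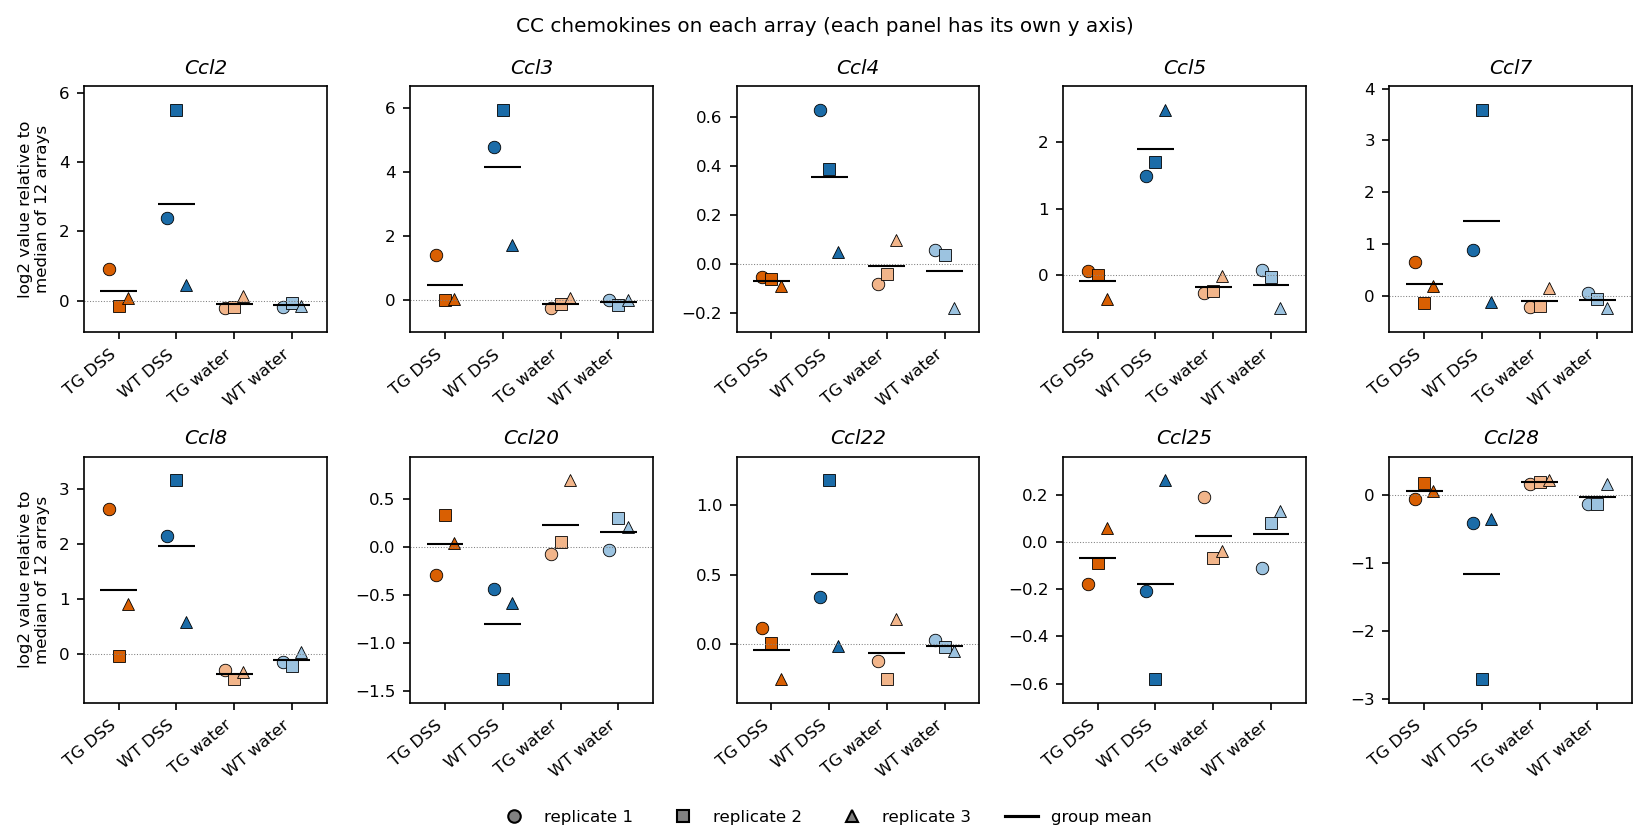
Log2 value of each CC chemokine relative to its median over 12 arrays (y axis, own scale per panel) in the TG DSS, WT DSS, TG water and WT water groups (x axis). Symbols mark replicates and horizontal lines are means of 3 arrays. Ccl5 sits between 1.5 and 2.49 on the WT DSS arrays and at or below 0.08 elsewhere, while Ccl2, Ccl3 and Ccl7 peak on WT DSS replicate 2.

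Ccl3 and Ccl4, the macrophage inflammatory proteins 1-alpha and 1-beta, attract monocytes and lymphocytes, and Ccl3 binds Ccr1. Ccl3 read 1.38, -0.02 and 0.01 in TG DSS, 4.77, 5.94 and 1.72 in WT DSS, -0.28, -0.14 and 0.04 in TG water and -0.01, -0.17 and -0.01 in WT water replicates 1 to 3. Each WT DSS array exceeded every other array, and TG DSS replicate 1 exceeded the rest. The DSS difference in WT was 4.21 ± 0.85 (SE; 18.5-fold; limma adjusted p = 0.0751), ranked 5 from the highest of 19935 genes, while the 3 WT DSS arrays had an SD of 2.18. TG minus WT under DSS was -3.69 ± 0.85 (limma adjusted p = 0.123), ranked 3 from the lowest of all genes. Without WT DSS replicate 3, the WT DSS array where Ccl3 was lowest, Ccl3 passed in both comparisons, at 5.42 (limma adjusted p = 0.00209) and -4.90 (limma adjusted p = 0.00331). It also passed in the interaction, at -4.83 (limma adjusted p = 0.0468). In that setting 575 of 19935 genes passed for DSS in WT, 164 for TG against WT under DSS and 6 for the interaction.

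Ccl4 lies next to Ccl3 on the chromosome and had smaller differences on its probe set. It read -0.05, -0.06 and -0.09 in TG DSS, 0.63, 0.39 and 0.05 in WT DSS, -0.08, -0.04 and 0.10 in TG water and 0.06, 0.04 and -0.18 in WT water replicates 1 to 3. WT DSS and WT water overlapped by a single array, at 0.05 and 0.06. The DSS difference in WT was 0.38 ± 0.13 (limma adjusted p = 0.229) and TG minus WT under DSS was -0.42 ± 0.13 (limma adjusted p = 0.19). For Ccl4 the DSS difference in WT was 0.25 without WT DSS replicate 1 (limma adjusted p = 0.288) and 0.54 without replicate 3 (limma adjusted p = 0.0416). Without replicate 3, 575 of 19935 genes passed in that comparison.

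The monocyte chemoattractants Ccl2 and Ccl7 act on Ccr2, the receptor that releases monocytes from bone marrow. Ccl2 read 0.90, -0.15 and 0.08 in TG DSS, 2.38, 5.50 and 0.45 in WT DSS, -0.23, -0.20 and 0.12 in TG water and -0.19, -0.08 and -0.16 in WT water replicates 1 to 3. WT DSS did not overlap WT water, but replicate 3 lay below TG DSS replicate 1. Its DSS difference in WT was 2.92 ± 0.95 (SE; 7.56-fold; limma adjusted p = 0.201) and TG minus WT under DSS was -2.50 ± 0.95 (limma adjusted p = 0.25). For Ccl2 the DSS difference in WT was 1.56 without WT DSS replicate 2 (limma adjusted p = 0.178) and 4.08 without replicate 3 (limma adjusted p = 0.0259), and TG minus WT under DSS ranged from -3.66 to -1.14 when 1 array was left out. For DSS in WT, 575 of 19935 genes passed without replicate 3.

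Ccl7 followed the same arrays with a smaller range. It read 0.65, -0.13 and 0.20 in TG DSS, 0.89, 3.59 and -0.12 in WT DSS, -0.22, -0.20 and 0.15 in TG water and 0.06, -0.06 and -0.24 in WT water replicates 1 to 3. WT DSS replicate 3 lay inside the WT water range, so the groups overlapped, and the DSS difference in WT was 1.53 ± 0.72 (limma adjusted p = 0.349). For Ccl7 it was 0.46 without WT DSS replicate 2 and 2.32 without replicate 3.

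Ccl8, monocyte chemoattractant protein 2, which in mice acts through Ccr8, had the largest DSS difference of the 10 in TG. Ccl8 read 2.63, -0.04 and 0.90 in TG DSS, 2.15, 3.15 and 0.58 in WT DSS, -0.29, -0.45 and -0.33 in TG water and -0.14, -0.22 and 0.04 in WT water replicates 1 to 3. Every DSS array lay above every water array of its own genotype. The DSS difference was 1.52 ± 0.69 in TG (95% interval -0.01 to 3.04; unadjusted p = 0.0509; limma adjusted p = 1), ranked 7 from the highest of all genes, and 2.07 ± 0.69 in WT (limma adjusted p = 0.205). Averaged over the genotypes it was 1.79 ± 0.48 (unadjusted p = 0.00405; limma adjusted p = 0.238). TG minus WT under DSS was -0.80 ± 0.69, with a 95% interval of -2.32 to 0.73. For Ccl8 the DSS difference in TG was 0.78 without TG DSS replicate 1, and leaving out 1 array at a time gave 0.78 to 2.12. The DSS difference in WT was 1.47 without WT DSS replicate 2 (limma adjusted p = 0.372) and 2.76 without replicate 3 (limma adjusted p = 0.0486), and TG minus WT under DSS ranged from -1.53 to -0.20. For DSS in WT, 575 of 19935 genes passed without replicate 3.

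Ccl22, made mainly by dendritic cells and macrophages, draws Ccr4-bearing T cells including regulatory T cells. It read 0.12, 0.01 and -0.25 in TG DSS, 0.34, 1.18 and -0.01 in WT DSS, -0.12, -0.25 and 0.18 in TG water and 0.03, -0.02 and -0.05 in WT water replicates 1 to 3. The groups overlapped in each comparison, and the DSS difference in WT was 0.52 ± 0.25 (limma adjusted p = 0.363). For Ccl22 it was 0.18 without WT DSS replicate 2.

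Of the epithelial chemokines, Ccl20 and Ccl28 were lower on the WT DSS arrays. Ccl20, which attracts Ccr6-bearing dendritic cells and lymphocytes to the epithelium over lymphoid follicles, read -0.30, 0.33 and 0.04 in TG DSS, -0.44, -1.38 and -0.59 in WT DSS, -0.08, 0.05 and 0.69 in TG water and -0.04, 0.30 and 0.20 in WT water replicates 1 to 3. All WT DSS arrays lay below all 9 other arrays. The DSS difference in WT was -0.95 ± 0.28 (SE; limma adjusted p = 0.164) and TG minus WT under DSS was 0.82 ± 0.28 (limma adjusted p = 0.204). For Ccl20 TG minus WT under DSS was 0.54 without WT DSS replicate 2.

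Ccl28, a mucosal chemokine that recruits plasma cells bearing Ccr10, read -0.06, 0.18 and 0.06 in TG DSS, -0.40, -2.70 and -0.35 in WT DSS, 0.16, 0.19 and 0.22 in TG water and -0.13, -0.13 and 0.17 in WT water replicates 1 to 3. The WT DSS arrays were again the 3 lowest, and replicate 2 lay far under the others. The DSS difference in WT was -1.12 ± 0.50 (limma adjusted p = 0.323) and TG minus WT under DSS was 1.21 ± 0.50 (limma adjusted p = 0.283). For Ccl28 these were -0.34 and 0.44 without WT DSS replicate 2. WT DSS replicate 2 is the array with the low pan-epithelial median of -2.13, beside a Ccl28 of -2.70 and a Ccl20 of -1.38. On WT DSS replicates 1 and 3 the pan-epithelial medians were -0.05 and 0.06, beside a Ccl28 of -0.40 and -0.35 and a Ccl20 of -0.44 and -0.59.

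Ccl25, which guides Ccr9-bearing lymphocytes and is mainly a small intestinal and thymic chemokine, had the smallest DSS difference of the 10 in WT. It read -0.18, -0.09 and 0.06 in TG DSS, -0.21, -0.58 and 0.26 in WT DSS, 0.19, -0.07 and -0.04 in TG water and -0.11, 0.08 and 0.13 in WT water replicates 1 to 3. The groups overlapped in all 4 pairwise comparisons, and the DSS difference was -0.10 ± 0.18 in TG (95% interval -0.50 to 0.31) and -0.21 ± 0.18 in WT (95% interval -0.62 to 0.20). Its pair of probe sets differed most on WT DSS replicate 1, where 1 read 0.00 and the other -0.42. The 12 small intestinal enterocyte genes had medians between -0.11 and 0.05 on the TG DSS arrays, -0.21 and 0.04 on the WT DSS arrays, -0.04 and 0.05 on the TG water arrays and -0.06 and 0.12 on the WT water arrays.

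The stretches in front of 4 genes are printed because these are the members whose WT DSS and WT water arrays did not overlap, among the 6 members with an entry in the RefSeq promoter table (GRCm38.p6, 250 bases before to 50 after the start). Ccl2, Ccl4, Ccl5 and Ccl7 have none there. Ccl3 (chr11:83649329-83649628, minus strand) and Ccl8 (chr11:82114935-82115234, plus strand) stood higher in WT DSS than in WT water, and Ccl20 (chr1:83116516-83116815, plus strand) and Ccl28 (chr13:119623569-119623868, plus strand) lower. Capitals mark matches to the NF-kB type pattern GGGNNNNNCC or to TATAAA on either strand.
Ccl3: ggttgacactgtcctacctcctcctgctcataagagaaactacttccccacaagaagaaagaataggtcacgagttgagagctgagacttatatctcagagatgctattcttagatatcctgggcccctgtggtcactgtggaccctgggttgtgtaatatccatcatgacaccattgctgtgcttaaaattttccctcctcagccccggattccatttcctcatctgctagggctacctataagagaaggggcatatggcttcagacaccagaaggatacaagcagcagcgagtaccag
Ccl8: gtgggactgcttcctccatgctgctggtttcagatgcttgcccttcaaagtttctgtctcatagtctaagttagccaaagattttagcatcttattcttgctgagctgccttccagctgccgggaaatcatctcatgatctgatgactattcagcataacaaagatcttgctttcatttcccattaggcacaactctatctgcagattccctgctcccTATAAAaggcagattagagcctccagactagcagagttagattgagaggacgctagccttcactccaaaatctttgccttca
Ccl20: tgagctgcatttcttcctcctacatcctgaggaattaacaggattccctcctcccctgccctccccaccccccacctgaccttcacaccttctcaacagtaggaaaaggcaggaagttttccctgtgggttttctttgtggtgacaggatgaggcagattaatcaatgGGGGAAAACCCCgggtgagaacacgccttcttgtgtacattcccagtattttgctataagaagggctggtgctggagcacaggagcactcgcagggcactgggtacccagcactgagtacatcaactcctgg
Ccl28: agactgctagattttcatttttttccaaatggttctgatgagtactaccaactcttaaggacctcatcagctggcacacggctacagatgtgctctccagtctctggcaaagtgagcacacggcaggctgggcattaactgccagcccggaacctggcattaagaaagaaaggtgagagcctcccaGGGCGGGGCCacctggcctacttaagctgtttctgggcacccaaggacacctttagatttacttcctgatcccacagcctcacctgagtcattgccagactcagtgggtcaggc
In Ccl20 the capitals hold 3 overlapping matches to GGGNNNNNCC, starting 82, 81 and 80 bases before the start, on both strands. Ccl28 holds 1 such match 64 bases before the start. The pattern is loose, since 50.8% of 32851 promoters of this length hold it. Ccl8 holds TATAAA 32 bases before the start, a motif found in 13.6% of promoters, and Ccl3 holds neither of these patterns. Of 2 further patterns searched on both strands, TGANTCA of the AP-1 type (7.81% of promoters) was found in Ccl28 and GAAANNGAAA of the interferon response type (3.44%) in none of the 4. Matches describe the letters of these windows and are not shown to be sites.

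**Figure D2:**
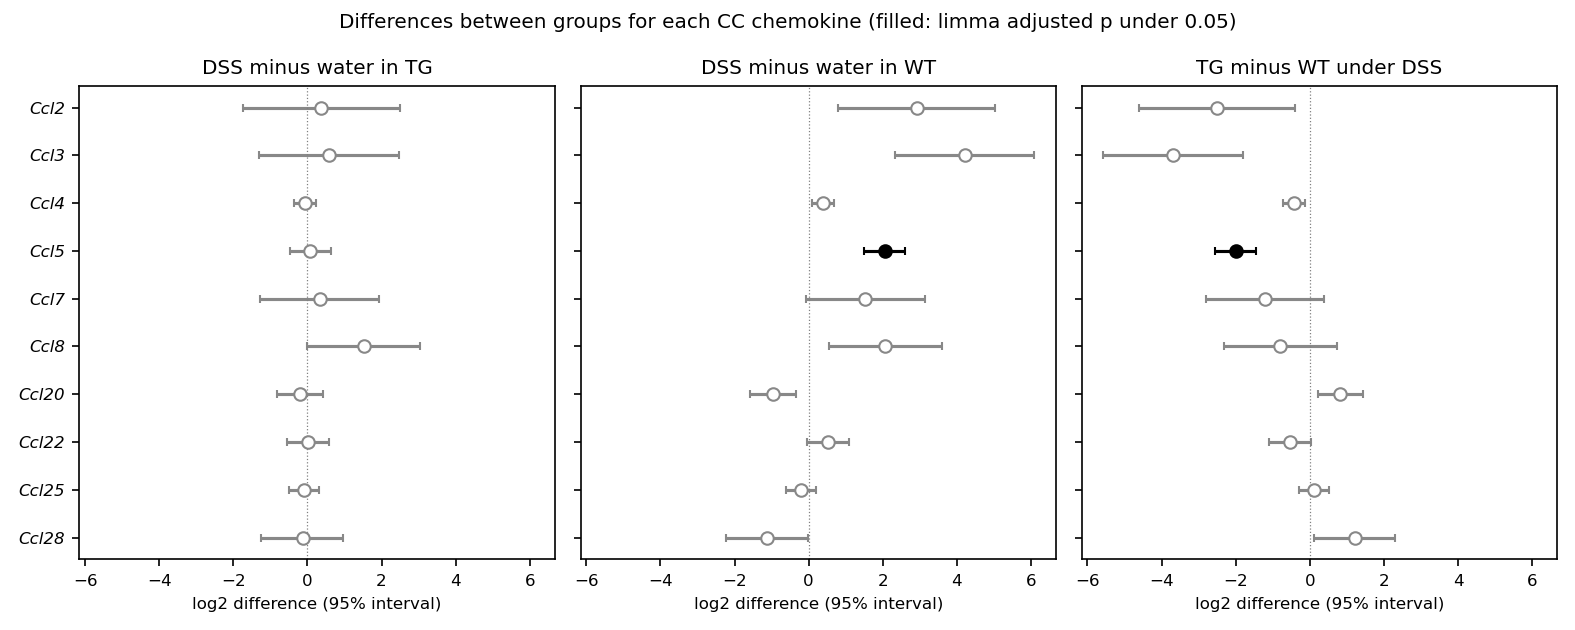
Log2 difference for each CC chemokine (y axis) between DSS and water in TG, DSS and water in WT, and TG and WT under DSS (x axis, shared), from limma over all 12 arrays. Points are estimates, bars are 95% intervals and filled points passed at an adjusted p under 0.05. Ccl5 is the filled point, at 2.05 for DSS in WT and -1.99 for TG against WT under DSS.

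Counted together, the WT DSS and WT water arrays did not overlap for 6 of the 10 genes, 4 higher (Ccl2, Ccl3, Ccl5, Ccl8) and 2 lower (Ccl20, Ccl28), where 16.1% of all genes did not overlap, 5.45% higher and 10.7% lower. An unadjusted p under 0.05 was reached by 7 of 10 members in WT, where 15.2% of all genes reached it. Because the members were chosen with earlier results of these data known, such shares describe them and do not test the family against other genes. The median DSS difference of the 10 genes in WT was 1.03, with a range of -1.12 to 4.21, beside -0.04 over all genes. In TG the median DSS difference was 0.05, with a range of -0.20 to 1.52, beside -0.01 over all genes. Ccl8 alone had groups that did not overlap there, higher in DSS, where 13.4% of all genes did not overlap, 6.76% higher and 6.64% lower, and 0 of 10 had an unadjusted p under 0.05, where 2.38% of all genes did.

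Between TG and WT under DSS, 5 of 10 genes had groups that did not overlap, with Ccl3, Ccl4 and Ccl5 lower and Ccl20 and Ccl28 higher in TG, where 19% of all genes did not overlap, 14.1% higher and 4.9% lower. An unadjusted p under 0.05 was reached by 6 of 10, where 15.9% of all genes reached it. The median difference was -0.67, beside 0.04 over all genes. At water the median difference was -0.01 and 1 gene, Ccl8, had groups that did not overlap, at -0.25 (4.98% of all genes did not overlap, 3.05% lower). In the interaction 3 members, Ccl3, Ccl4 and Ccl5, had an unadjusted p under 0.05 (5.85% of all genes) and 0 passed. With DSS averaged over the genotypes 0 of 10 members passed (0.00502% of all genes did), and Ccl5 stood at 1.06 ± 0.18 (limma adjusted p = 0.0938). With TG against WT averaged over treatments 0 of 10 passed, and 3 had an unadjusted p under 0.05, where 7.86% of all genes did.

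The WT DSS arrays differed in which chemokines had their highest value on them. Replicate 2 held the highest value of Ccl2, Ccl3, Ccl7, Ccl8 and Ccl22 over all arrays, replicate 1 that of Ccl4 and replicate 3 that of Ccl5. Replicate 3 had the lowest WT DSS value of Ccl2, Ccl3, Ccl4, Ccl7, Ccl8 and Ccl22. Ccl5 was thus highest on the WT DSS array where those 6 genes were lowest.

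Leukocyte and stromal markers were spread over the same arrays. The macrophage and monocyte list (11 of 12 genes measured) had medians of 0.96, -0.32 and -0.18 in TG DSS and 1.13, 2.39 and -0.08 in WT DSS replicates 1 to 3, and between -0.46 and 0.24 on the water arrays. The neutrophil list (12 of 12 genes) had medians of 0.52, -0.04 and 0.01 in TG DSS and 1.35, 3.21 and 0.17 in WT DSS. The list was split, with 9 genes above 0 and 3 below for DSS in WT. Ly6g stood at -1.49 ± 0.52 (SE; limma adjusted p = 0.225), Mpo at -0.09, Elane at 0.01 and Camp at -0.04. These neutrophil genes were named after their values were seen. The arrays with the highest macrophage and neutrophil medians, WT DSS replicates 2 and 1 and TG DSS replicate 1, were also those with the highest Ccl2, and the highest Ccl7 and Ccl8. Endothelial medians were 0.44, -0.24 and -0.17 in TG DSS and 0.76, 2.90 and -0.30 in WT DSS, and fibroblast medians 0.89, -0.30 and -0.15 in TG DSS and 1.16, 2.26 and -0.32 in WT DSS. No gene of these lists passed in any of the 4 pairwise comparisons, and their part in the chemokine values was not tested.

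On WT DSS replicate 3 the macrophage median of -0.08 and the neutrophil median of 0.17 lay near the water arrays, while Ccl5 was at 2.49 and Ccl3 at 1.72. Some genes of the T and NK cell list were high there and others were not. Gzmb, which encodes granzyme B, read 0.56, -0.10 and -0.01 in TG DSS and 0.50, 1.84 and 2.60 in WT DSS replicates 1 to 3. The T cell receptor subunit gene Cd3g read 0.69, 0.17 and -0.68 in TG DSS and 0.26, 1.55 and 1.74 in WT DSS. Both had their highest value on the array where Ccl5 was highest, and their DSS differences in WT were 1.69 ± 0.42 and 1.5 ± 0.41 (SE; limma adjusted p = 0.117 and 0.141). Gzma at 2.48 and Nkg7 at 1.74, named after their values were seen, were also highest on WT DSS replicate 3, against 0.33 or less on the other 11 arrays. Other genes of cytotoxic cells on the list were near 0 on that array, with Prf1, which encodes perforin, at -0.22, the NK receptor gene Ncr1 at 0.09 and Cd8b1 at -0.01, also named after their values were seen. The DSS differences in WT of these 3 genes were -0.07 ± 0.15, -0.07 ± 0.11 and 0.02 ± 0.11 (SE; limma adjusted p = 0.883, 0.829 and 0.948). The whole T and NK cell list of 14 genes had medians of 0.10, -0.01 and -0.10 in TG DSS, 0.17, 0.20 and 0.17 in WT DSS, and between -0.25 and 0.15 on the water arrays, with 0 of 14 passing. The part of lymphocytes in the Ccl5 values was not tested.

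**Figure D3:**
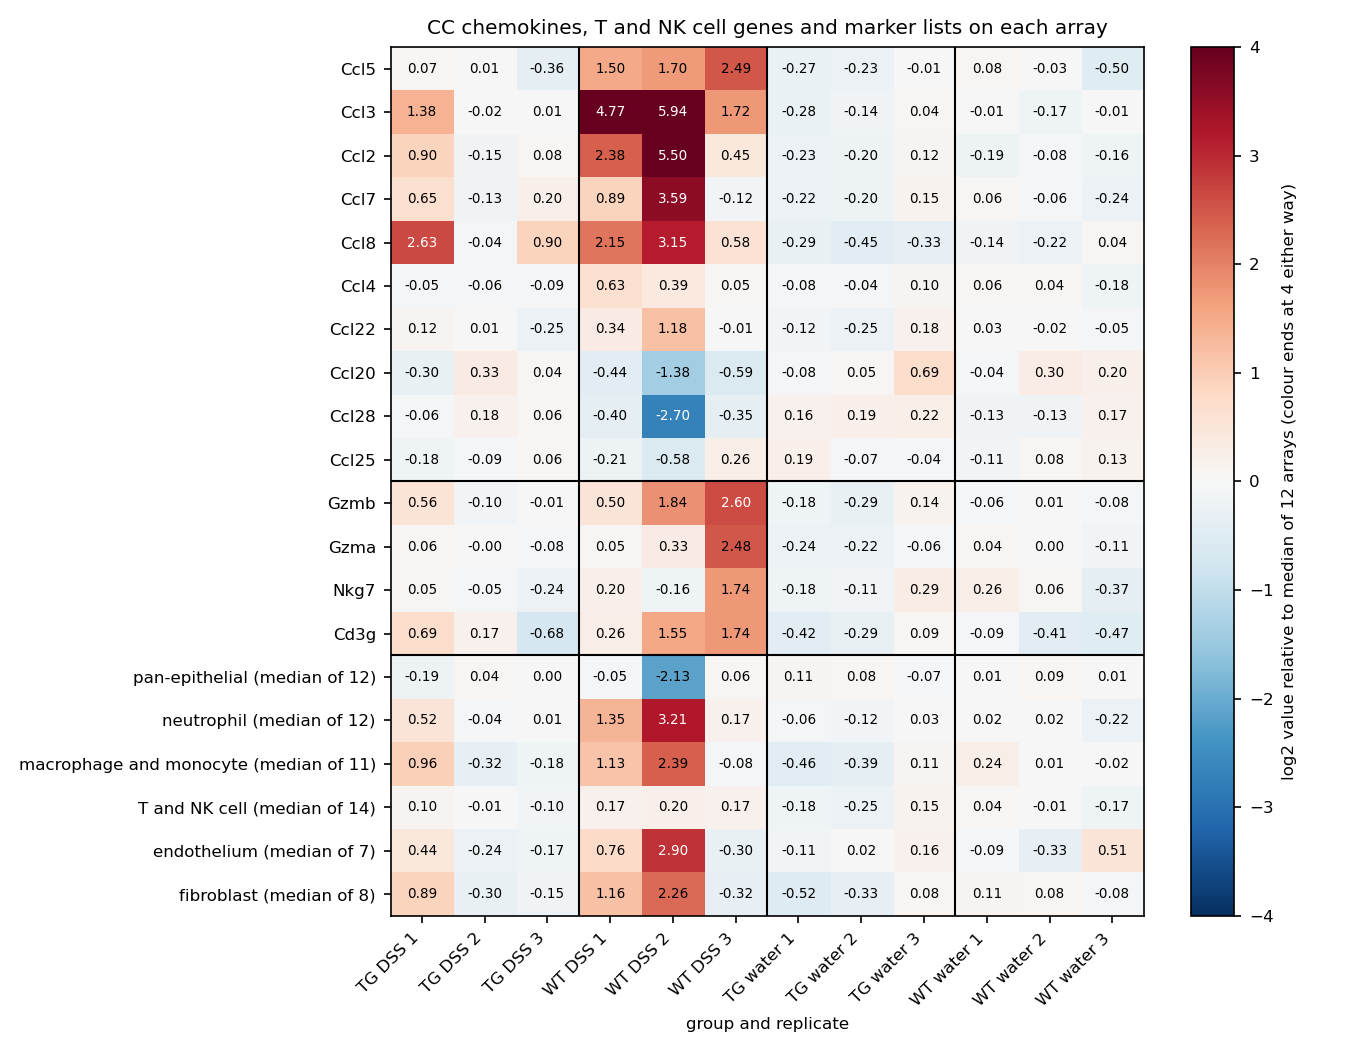
Log2 value relative to the median of 12 arrays (colour and printed number) for the 10 CC chemokines, for Gzmb, Gzma, Nkg7 and Cd3g, and for the median of 6 marker lists (rows), on each array (columns, TG DSS, WT DSS, TG water and WT water). Ccl5, Gzmb and Gzma peak on WT DSS replicate 3, at 2.49, 2.60 and 2.48, while Ccl2, Ccl3 and the macrophage median peak on replicate 2, at 5.50, 5.94 and 2.39. The T and NK cell genes drawn do not stand for their list, whose median on WT DSS replicate 3 was 0.17. Gzma and Nkg7 were named after their values were seen. Prf1, Ncr1 and Cd8b1, which lay near their own medians on that array, are not drawn.

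The genes whose pattern over the 12 arrays was most like that of Ccl5, by Pearson correlation, were Tbc1d9 (r = 0.970), Sema6d (0.961), B4galnt1 (0.953), Gpat3 (0.951) and Stab2 (0.944). All of these values lean on the 3 WT DSS arrays, and over the other 9 arrays the correlations were between 0.602 and 0.722. B4galnt1, which makes gangliosides, read 1.16, 2.59 and 2.94 on WT DSS replicates 1 to 3 and between -0.49 and 0.61 on the other 9 arrays. For Ccl25 the nearest were Ddr1 (r = 0.947), Trpt1 (0.942), Rab4a (0.937), Car1 (0.931) and Mfhas1 (0.929), and over the 9 arrays outside WT DSS these correlations were between 0.690 and 0.846.

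Receptors were measured on the same arrays. Of the 11 CC receptor genes analysed here, 0 passed in any of the 4 pairwise comparisons. Their median DSS difference in WT was 0.38, with a range of -0.21 to 1.39. Ccr1 read 0.56, -0.05 and -0.02 in TG DSS and 1.30, 2.71 and 0.17 in WT DSS replicates 1 to 3, with a DSS difference in WT of 1.39 ± 0.49 (limma adjusted p = 0.23). Ccr2 read 1.02, -0.13 and -0.15 in TG DSS and 1.59, 1.73 and 0.03 in WT DSS, with 1.14 ± 0.43 (limma adjusted p = 0.256). Both were low on WT DSS replicate 3, where Ccl5 was highest.

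Ccrl2, a receptor-like protein that binds chemerin without signalling, had a DSS difference in WT of 1.15 ± 0.35 (limma adjusted p = 0.18). Ccr4, the receptor of Ccl22, stood at 0.54 ± 0.17 (limma adjusted p = 0.189) and Ccr8, the mouse receptor of Ccl8, at 0.38 ± 0.19 (limma adjusted p = 0.364). For the ligands of epithelium, Ccr6 stood at -0.21 ± 0.20, Ccr9 at 0.32 ± 0.25, Ccr10 at -0.20 ± 0.12 and Ccr3 at 0.03 ± 0.10 in the same comparison. The 4 atypical receptors, which bind chemokines without G protein signalling, had a median of 0.40, and Ackr1, which presents chemokines on venules, read 0.58, -0.11 and -0.17 in TG DSS and 0.53, 3.85 and 0.01 in WT DSS replicates 1 to 3. Its peak fell on the array with the highest endothelial median.

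Ccl2, Ccl7, Ccl11, Ccl12, Ccl8 and Ccl1 follow each other in that order among the measured genes of mouse chromosome 11, and Ccl5, Ccl9, Ccl6, Ccl3 and Ccl4 form a second cluster (order from RefSeq). Neighbours within both clusters had unlike differences. In the first, Ccl12, between Ccl11 and Ccl8, had a DSS difference in WT of 0.00 ± 0.13 and Ccl1 of -0.10 ± 0.14, while Ccl11, the eosinophil attractant eotaxin, stood at 0.89 ± 0.42 (limma adjusted p = 0.348). In the second, Ccl9 stood at 1.33 ± 0.44 (limma adjusted p = 0.205) and Ccl6 at 0.28 ± 0.27. Of the 14 CC ligands listed beside the 10, 9 were measured by probe sets of a single symbol and 0 passed in any of the 4 pairwise comparisons, with a median DSS difference in WT of 0.00.

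**Figure D4:**
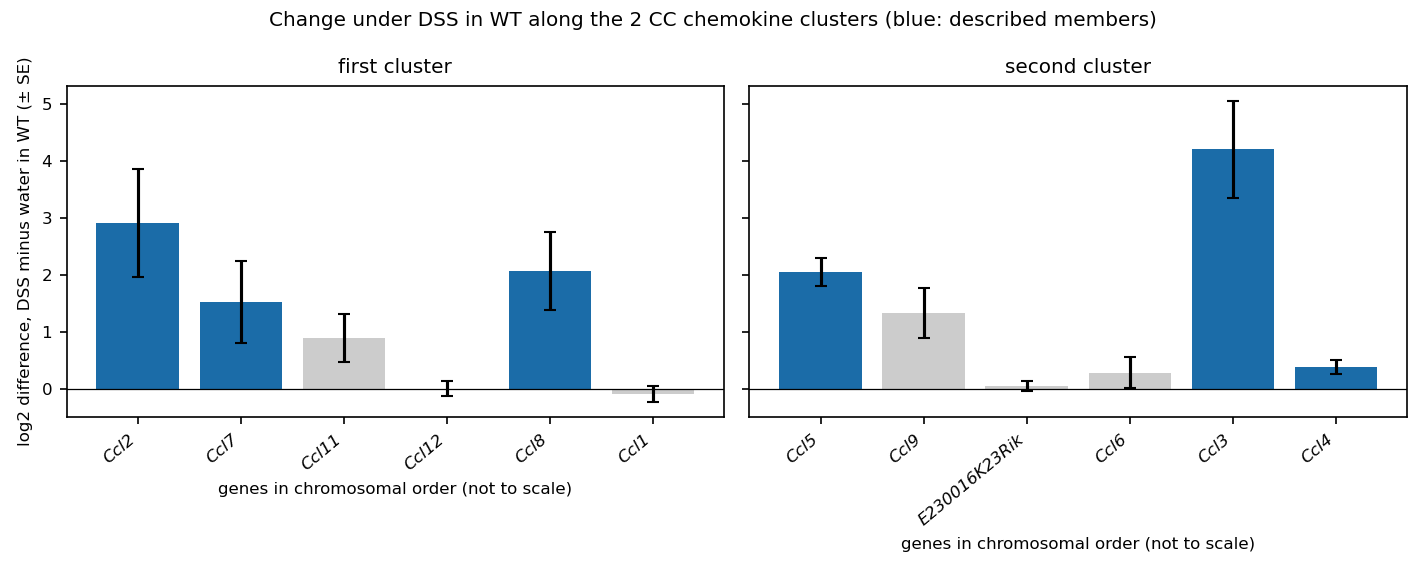
Log2 difference between DSS and water in WT (y axis, bars with SE from limma over 12 arrays) for the measured genes of the chromosome 11 CC chemokine clusters in chromosomal order, not to scale (x axis). Blue bars are the chemokines described here and grey bars are other genes. Ccl3 stands at 4.21 beside Ccl4 at 0.38, and Ccl8 at 2.07 beside Ccl12 at 0.00.

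Cytokines that can switch on these ligands were examined next. Tnf, a main inducer of NF-kB, read 0.74, 0.47 and -0.11 in TG DSS, 1.44, 1.39 and 1.13 in WT DSS, -0.61, -0.11 and 0.02 in TG water and -0.02, -0.04 and -0.60 in WT water replicates 1 to 3. Tnf was above every other array on all 3 WT DSS arrays, lowest on replicate 3, with a DSS difference in WT of 1.54 ± 0.25 (limma adjusted p = 0.0511). Il1b, the secreted cytokine interleukin-1 beta, read 2.32, -0.32 and -0.03 in TG DSS and 4.79, 5.44 and 1.93 in WT DSS, with a DSS difference in WT of 4.07 ± 0.86 (limma adjusted p = 0.0813). Its order over the WT DSS arrays was that of Ccl3. Of the 13 measured inducers and interferon factors 0 passed, with a median DSS difference in WT of 0.11, and of the 12 measured NF-kB subunits and inhibitors 0 passed, with a median of 0.48 (Nfkbiz 0.92 ± 0.22, limma adjusted p = 0.105).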

How the data were processed

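RNA of 12 samples was hybridised to Affymetrix arrays, 3 for each of 4 groups named in the sample titles. The deposited table holds values for 28815 probe sets, summarised with RMA in Affymetrix Expression Console per the submitters' processing notes, with no version given in the sources used here. No label states the log base of these deposited values, and log2 was assumed, as RMA gives. Every probe set had a 12-array median within 5e-07 of 0, so values are centred per probe set. Signal over background could therefore not be judged, and no filter on dim probe sets was applied. Of the probe sets 21780 have 1 gene symbol, 1605 several and 5430 none. Those with 1 symbol were averaged to 19935 genes.

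Group means were estimated from the 12 arrays in 1 limma fit (version 3.58.1, R 4.3.3; lmFit, then eBayes; 8 residual degrees of freedom), and two-sided p-values were adjusted by Benjamini-Hochberg over all genes, with a threshold of 0.05. SE and 95% intervals are limma's moderated ones. A permutation of 3 against 3 arrays cannot reach p = 0.05 and was not used. The fit was tested on simulated data with normal noise and 1 spread per gene shared by the 4 groups. The real groups had unequal spreads, so that test cannot show how the calls hold under them. Tables and figures used Python 3.11.15, pandas 2.3.3 and matplotlib 3.10.9.

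The members and lists were chosen with earlier results of these data known. All 10 members are named. Of other lists, up to 4 genes with the smallest p for DSS in WT, any receptor of a member, chromosomal neighbours and the 5 genes most correlated with Ccl5 and with Ccl25 could be named, without predicted or numbered gene models. Alternatives were the groups compared alone, a replicate block, single probe sets, genes with a single probe set, centring per array, array or group weights, eBayes with trend and robust, stricter thresholds and leaving out each array. Leaving out WT DSS replicate 2 and TG DSS replicate 1 together was added after the data were seen.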

Additional observations from a re-analysis of the deposited data

Results flagged for a closer look

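Ccl4 is singled out because its DSS arrays lay on opposite sides of their own water mean in the genotypes. All 3 TG DSS arrays lay below the TG water mean of -0.01 and all 3 WT DSS arrays lay above the WT water mean of -0.03. The DSS and water arrays of Ccl4 nevertheless overlapped in both genotypes. Its DSS difference was -0.06 ± 0.13 in TG (SE; limma unadjusted p = 0.654) and 0.38 ± 0.13 in WT (limma adjusted p = 0.229). The TG difference was smaller than its SE, so a fall in TG is not shown. How many of all genes meet this rule is not given here. The interaction, TG DSS effect less WT DSS effect, was -0.44 ± 0.19 (limma adjusted p = 0.831), so the difference itself did not pass.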

How the results depend on the processing

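Replicate numbers did not pair the arrays: 1 of 18 same-numbered pairs of deviations from the group means correlated above 0.1, with a range of -0.484 to 0.377. With the replicate block 0 members and 0 genes passed for DSS in WT, for TG against WT under DSS and for DSS averaged over genotypes. The groups compared alone, weights per group and an adjusted p under 0.01 also gave 0 members and 0 genes for DSS in WT and for TG against WT under DSS. An adjusted p under 0.01 gave 0 genes for DSS averaged too. The groups alone could not be fitted for the interaction and the averages, which use all 4 groups. With trend and robust eBayes 0 members passed, with 2 genes for DSS in WT, 0 for TG against WT under DSS and 3 for DSS averaged. Weights per array passed 4 members and 754 genes for DSS in WT, 3 members and 273 genes for TG against WT under DSS, 4 members and 944 genes for DSS averaged, 4 members and 1256 genes for TG against WT averaged, and 4, 1971 and 12 genes for DSS in TG, TG against WT at water and the interaction. Single probe sets gave 105 calls for DSS in WT, genes with a single probe set 12 for DSS averaged, and centring per array 4 for TG against WT under DSS. Without WT DSS replicate 2 and TG DSS replicate 1 together, Ccl5 still passed in both comparisons, with 263 genes for DSS in WT, 212 for TG against WT under DSS, 7 for the interaction, 16 for DSS averaged and 9 for TG against WT averaged. Leaving out 1 array at a time gave 0 to 5 members and 0 to 919 genes for DSS in WT, 0 to 2 and 0 to 1166 for TG against WT under DSS, 0 to 1 and 0 to 239 for the interaction, 0 to 2 and 0 to 315 for DSS averaged, and 0 to 1 and 0 to 374 for TG against WT averaged. The 5 members were Ccl2, Ccl3, Ccl4, Ccl5 and Ccl8, without WT DSS replicate 3, where 575 genes passed for DSS in WT. The highest gene counts came without WT DSS replicate 1. The causes were not tested.

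Of 70 member changes 15 turned sign somewhere, none of them past the threshold. Leaving out 1 array at a time, DSS in TG ranged from -0.01 to 0.21 for Ccl5, -0.35 to 0.04 for Ccl20 and -0.07 to 0.15 for Ccl22. TG minus WT at water ranged from -0.07 to 0.10 for Ccl2, -0.15 to 0.01 for Ccl3, -0.06 to 0.06 for Ccl4, -0.19 to 0.09 for Ccl5, -0.13 to 0.06 for Ccl7, -0.17 to 0.22 for Ccl20, -0.17 to 0.04 for Ccl22 and -0.09 to 0.04 for Ccl25. Ccl25 ranged from -0.10 to 0.32 for TG minus WT under DSS, -0.09 to 0.33 for the interaction and -0.05 to 0.16 for TG minus WT averaged, and Ccl8 from -1.28 to 0.05 for the interaction. With weights per array, Ccl20 was 0.06 for DSS in TG, and Ccl2 -0.02, Ccl4 -0.09 and Ccl25 0.06 for TG minus WT at water, where a single Ccl25 probe set gave 0.12. Without the 2 arrays together, DSS in TG was -0.01 for Ccl5 and -0.06 for Ccl22, and Ccl25 was -0.04, -0.04 and -0.02 for TG minus WT under DSS, the interaction and TG minus WT averaged.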

Other observations

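Probe sets shared by the near-identical Ccl21 genes, whose products guide dendritic cells and T cells to lymph nodes through Ccr7, were left out of the comparisons because they carry several symbols. The 4 such probe sets read 2.79 on WT DSS replicate 2 and between -0.55 and 0.47 on the other 11 arrays, and that array also had the highest endothelial median of 2.90. Ccl19, the other ligand of Ccr7, read 1.11, 0.66 and -0.28 in TG DSS and 1.41, 0.42 and -0.50 in WT DSS replicates 1 to 3. On water it read -0.17, -0.49 and 0.76 in TG and 0.09, -0.09 and -0.52 in WT. TG water replicate 3 thus lay above replicate 2 of both DSS groups. The DSS difference of Ccl19 in WT was 0.62 ± 0.51 (limma adjusted p = 0.607).

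Genes of the epithelium over lymphoid follicles, a known source of Ccl20, lay on both sides of 0. Tnfaip2 had a DSS difference in WT of 2.36 ± 0.64 (limma adjusted p = 0.14) and Gp2, a receptor of M cells, of -0.89 ± 0.24 (limma adjusted p = 0.135), with 0 of 6 genes passing and a list median of 0.48. Lists of dendritic, mast, B and plasma, and smooth muscle cell markers had 0 genes passing for DSS in WT, with medians of 0.06, 0.22, -0.04 and -0.30.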
